A study of Mus musculus with 5 samples.

Results

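The genes described here are Spp1, Fn1, Gpnmb, Trem2, Cd9, Cd63 and Lgals3, which are known together as scar-associated macrophage genes from fibrotic liver and lung. They were taken by their symbols, 7 of the 28693 features in the count matrices, and followed through every cell class and time point. The list was set by name and not by a measured value. Macrophages were gated by Cd68, a lysosomal membrane protein of macrophages, and by Car4, a carbonic anhydrase of resident alveolar macrophages, and none of the 7 genes was used to cluster or name the cells.

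Lung macrophages comprise alveolar macrophages, which live in the airspaces and clear surfactant, and interstitial macrophages of the tissue, and blood monocytes enter the lung and mature into macrophages after injury. In fibrotic organs a macrophage state with high SPP1, TREM2, CD9 and GPNMB is found beside collagen-producing mesenchymal cells. Spp1 encodes osteopontin and Fn1 encodes fibronectin, both secreted ligands of integrins. Gpnmb and Trem2 are membrane glycoproteins, Trem2 a lipid-sensing receptor that signals through the adaptor Tyrobp. Cd9 and Cd63 are tetraspanins of the cell surface and of late endosomes, and Lgals3 encodes galectin-3, a lectin that binds β-galactosides.

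Cells were isolated from perfused and digested lungs of Ms4a3-CreER;R26-tdT mice, by a protocol aimed at immune cells. In this line Cre activity follows Ms4a3, a gene of granulocyte-monocyte progenitors, and tamoxifen switches on the red reporter tdT in their descendants. The mice were adults of both sexes on a mixed C57BL6/129 background. Of the 5 libraries 1 was the PBS-treated control, called sham, and the others were taken 3, 7, 14 and 28 days after intratracheal bleomycin, a drug that injures the alveolar epithelium and leads to fibrosis. The number of mice behind each library is not given in the sources used here. With 1 library per time point, no difference between time points could be tested, and intervals on levels cover counting error only. Differences between cell classes were tested across the 5 libraries, which are 5 time points and not replicate animals.

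The libraries held 89769386 to 167506186 unique molecular identifiers (UMIs, counted cDNA molecules), and 40950 of 52800 barcodes remained after the quality limits and doublet removal. Day 7 stood apart in its input, with exactly 10000 barcodes and a lowest UMI count of 4624, against 500 to 502 in the other libraries. Pairs of libraries shared 22 to 41 barcode sequences, at most 0.420% of the smaller library. Car4-negative macrophages numbered 98 cells in sham and 72, 1807, 1932 and 3289 cells at days 3, 7, 14 and 28. Car4-positive macrophages numbered 5119, 643, 1630, 1401 and 2173 cells in the same order. The values of Car4-negative macrophages in sham and at day 3 therefore rest on fewer than 100 cells each.

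The 2 classes were not made of the same clusters at each time. Car4-negative macrophages were 79.6% cells of a cluster led by Ccl8, Pf4 and Cxcl13 in sham, 61.1% at day 3 and 88.1% at day 7. At day 14 and day 28 a cluster led by Mfge8, Mmp12 and Apoe made up 63.8% and 54.6% of the class, and a cluster led by Spp1, Nrgn and Lpl made up 28.7% and 41.0%. Car4-positive macrophages were mostly a cluster led by Fabp1 and Krt79 in sham (85.5%), a cluster led by Car4 and Cxcl9 at day 3 (82.4%), a cluster led by Ereg and Plet1 at days 7 and 14 (71.8% and 72.7%) and a cluster led by Ear1 and Kcnn3 at day 28 (83.3%). Since each library is 1 time point, a cluster found mostly in 1 library cannot be told apart from that library. The cut between the classes was nearest for the Spp1, Nrgn and Lpl cluster, in which 28.5% of cells held a Car4 UMI, and for the Ear1 and Kcnn3 cluster, in which 72.9% did. A further cluster of 2360 cells, led by Gm15056, Cxcl10 and Ccl12 and with 2218 of its cells at day 3, could be named neither macrophage nor monocyte from the markers and is given apart as the Gm15056 and Cxcl10 cluster. Levels are given in CPM, the UMIs of a gene scaled to 1000000 UMIs of the class. Cd68 reached 1404 CPM in the Gm15056 and Cxcl10 cluster, against 659 CPM in the Fabp1 and Krt79 cluster. The leading genes of the former also included Ly6c2, a marker used for monocytes.

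In the GRCm38 build with the GENCODE vM21 annotation, Spp1 (ENSMUSG00000029304) lies at chr5:104435118-104441050 on the plus strand and shares its strand with the overlapping gene Gm42793. Fn1 (ENSMUSG00000026193) lies at chr1:71585520-71653200 on the minus strand, with the antisense gene Apol7d on the other strand. Gpnmb (ENSMUSG00000029816) lies at chr6:49036546-49070929 and Trem2 (ENSMUSG00000023992) at chr17:48346401-48354147, both on the plus strand. Cd9 (ENSMUSG00000030342) lies at chr6:125460266-125494791 on the minus strand, opposite Gm28809 and Gm26728. Cd63 (ENSMUSG00000025351) lies at chr10:128900989-128912822 and Lgals3 (ENSMUSG00000050335) at chr14:47367751-47386160, both on the plus strand. Each member is a separate gene, and no 2 of them overlap.

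RefSeq promoter windows on GRCm38.p6 matched 6 of the 7 members, with 7 windows in all, and none was matched for Fn1. The 250 bases upstream of the RefSeq start site of the window are printed for Spp1, Gpnmb, Trem2 and Cd63, from windows that held no exon bases. The Cd63 window lies inside the gene span given above, so its start site is not the first base of that span. A second Spp1 window, chr5:104435942-104436191, held 250 exon bases of Gm42793 and is not printed. Capitals mark matches on either strand to GAGGAA (the core bound by PU.1, the myeloid master factor), TGANTCA (AP-1), CACGTG (the E-box bound by the MiT factors of lysosomal genes) and TATAAA (the TATA box).
Spp1, chr5:104434861-104435110, plus strand: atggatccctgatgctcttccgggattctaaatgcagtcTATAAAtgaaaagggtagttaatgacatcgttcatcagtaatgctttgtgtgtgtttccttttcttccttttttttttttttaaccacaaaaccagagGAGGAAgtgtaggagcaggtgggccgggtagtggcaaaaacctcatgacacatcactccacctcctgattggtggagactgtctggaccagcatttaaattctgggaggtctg
Gpnmb, chr6:49036268-49036517, plus strand: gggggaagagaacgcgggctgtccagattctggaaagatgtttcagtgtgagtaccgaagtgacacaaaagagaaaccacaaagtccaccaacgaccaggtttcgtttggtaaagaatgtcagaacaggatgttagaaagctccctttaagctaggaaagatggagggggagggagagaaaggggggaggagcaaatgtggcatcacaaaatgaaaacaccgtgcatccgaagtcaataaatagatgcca
Trem2, chr17:48346151-48346400, plus strand: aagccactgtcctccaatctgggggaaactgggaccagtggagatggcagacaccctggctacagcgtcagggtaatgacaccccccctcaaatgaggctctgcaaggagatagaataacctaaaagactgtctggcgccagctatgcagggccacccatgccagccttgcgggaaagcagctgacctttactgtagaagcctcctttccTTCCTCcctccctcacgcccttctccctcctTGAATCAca
Cd63, chr10:128909095-128909344, plus strand: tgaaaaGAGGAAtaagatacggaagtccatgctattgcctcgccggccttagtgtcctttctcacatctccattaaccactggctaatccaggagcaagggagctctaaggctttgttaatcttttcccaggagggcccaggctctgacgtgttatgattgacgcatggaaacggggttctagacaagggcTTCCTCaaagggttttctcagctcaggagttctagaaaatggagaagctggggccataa

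The printed Spp1 window held GAGGAA 113 bases and TATAAA 211 bases before the start site. The Cd63 window held GAGGAA 244 bases before its own start site, which is inside the gene span, and the reverse complement TTCCTC 59 bases before that site. The Trem2 window held TTCCTC 40 bases before the start and the AP-1 match TGAATCA 9 bases before it, and the Gpnmb window held none of the 4 motifs. Over 32851 promoter windows of the same length, GAGGAA was present in 23.3%, TGANTCA in 6.75%, CACGTG in 6.02% and TATAAA in 12.4%, and a match is a description of these letters only.

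Spp1, which encodes the integrin ligand osteopontin, was highest in Car4-negative macrophages at day 14, while its sham and day 3 levels in that class rest on fewer than 100 cells each. Its summed level in Car4-negative macrophages was 12001 CPM in sham (exact 95% Poisson interval 11832 to 12171), 959 CPM at day 3 (900 to 1020), 7987 CPM at day 7, 21694 CPM at day 14 and 17536 CPM at day 28. In Car4-positive macrophages it was 820 CPM in sham (814 to 826), 6058 CPM at day 3, 2846 CPM at day 7, 6757 CPM at day 14 and 6195 CPM at day 28. The sham value depends on which cells fall in the class. With the lowest UMI count of day 7 applied to every library, the remaining cells were clustered and named anew. Car4-negative macrophages of sham then held 228 Spp1 CPM, and day 3, at 1369 CPM, was 6.01-fold that level. Whether the sham value fell through cells left out or through cells placed in another class was not tested. The Car4-positive level was higher in every bleomycin library than in sham, and the 2 classes overlapped in range only through the Car4-negative value of day 3.

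The sham sum was carried by few cells. The median Car4-negative cell of sham held 1211 Spp1 CPM, 30.6% of the 98 cells held no Spp1 UMI, and the tenth of cells with the most Spp1 held 62.9% of the UMIs. At day 14 the median cell held 11583 CPM and at day 28 it held 9219 CPM. The Spp1 level of the typical cell was therefore lower in sham than at day 14 and day 28 by more than the sums show. In Car4-positive macrophages the median cell held 456 CPM in sham and 3164 CPM at day 28.

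Within clusters the Spp1 level also differed by library. In the Ccl8, Pf4 and Cxcl13 cluster it was 11926 CPM in sham (78 cells), 1167 CPM at day 3 (44 cells), 7401 CPM at day 7, 16431 CPM at day 14 and 9194 CPM at day 28. The Mfge8, Mmp12 and Apoe cluster held 15206 CPM at day 7, 23706 CPM at day 14 and 17240 CPM at day 28. In the Ereg and Plet1 cluster of the Car4-positive class, sham stood at 1264 CPM and the 4 bleomycin libraries at 2906 to 6412 CPM. The proliferating Car4-positive cluster, led by Top2a and Rrm2, held 997 CPM in sham and 2606 to 8688 CPM at days 7, 14 and 28. The Fabp1 and Krt79 cluster held 772 CPM in sham, 748 CPM at day 3 and 1886 CPM at day 7. Spp1 was therefore higher than in sham in the bleomycin libraries within 2 of the 3 Car4-positive clusters with at least 20 cells in sham and later, and at day 7 but not day 3 in the other.

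Spp1 UMIs were also found in lymphoid cells. T cells and innate lymphoid cells held 58.9 CPM in sham, 69.4 CPM at day 3, 210 CPM at day 7, 1374 CPM at day 14 and 1214 CPM at day 28. After each cell was thinned to 2000 UMIs, 92.4% of these lymphoid cells held an Spp1 UMI at day 14 and 88.0% at day 28, against 98.2% and 97.8% of Car4-negative macrophages. Shares of cells with Spp1 at these times are therefore close to those of lymphoid cells, and only the CPM separates the classes. The source of the Spp1 UMIs in lymphoid cells was not tested. The endothelial class held 12592 Spp1 CPM at day 28, in 84 cells that also held 667 Cd68 CPM, and the part of macrophage RNA in this value was not tested.

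Fn1, which encodes the matrix protein fibronectin, was highest among the macrophage clusters in a small cluster led by Prg4, Alox15 and Saa3. In these 107 cells Fn1 stood at 9743 CPM while Spp1 stood at 1002 CPM and Gpnmb at 28.4 CPM. Its level in the 4 libraries with at least 20 such cells was 5782 CPM at day 3, 8852 CPM at day 7, 14330 CPM at day 14 and 9989 CPM at day 28. The cluster also held C1qa at 2767 CPM and Cd68 at 358 CPM.

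In Car4-negative macrophages as a class, Fn1 was 2668 CPM in sham, 2809 CPM at day 3, 1142 CPM at day 7, 3124 CPM at day 14 and 2141 CPM at day 28. In Car4-positive macrophages it was 171 CPM in sham (169 to 174), 905 CPM at day 3, 603 CPM at day 7, 1931 CPM at day 14 and 1466 CPM at day 28. Fn1 was higher in the Car4-negative class in all 5 libraries. At day 3 the Prg4 cluster made up 27.8% of the class (20 of 72 cells), and the Ccl8, Pf4 and Cxcl13 cluster alone held only 183 Fn1 CPM there. In lymphoid cells Fn1 was 6.78 CPM in sham and 171 CPM at day 14.

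Gpnmb, a glycoprotein of lysosome-rich macrophages, was 1471 CPM in Car4-negative macrophages of sham, 113 CPM at day 3 (93.8 to 136), 2171 CPM at day 7, 1246 CPM at day 14 and 2174 CPM at day 28. In Car4-positive macrophages it was 667 CPM in sham, 464 CPM at day 3, 497 CPM at day 7, 372 CPM at day 14 and 467 CPM at day 28. The Car4-negative class was higher in 4 of 5 libraries and lower at day 3, where the unnamed Gm15056 and Cxcl10 cluster held 1892 CPM. In sham Gpnmb was at 672 CPM in the Fabp1 and Krt79 cluster of resident alveolar macrophages, so that a level well above the 41.4 CPM of lymphoid cells was present without injury.

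Trem2, the lipid-sensing receptor, was 364 CPM in Car4-negative macrophages of sham (335 to 394), 165 CPM at day 3 (141 to 192), 737 CPM at day 7, 655 CPM at day 14 and 844 CPM at day 28. In Car4-positive macrophages it was 95.1 CPM in sham, 194 CPM at day 3, 187 CPM at day 7, 189 CPM at day 14 and 202 CPM at day 28. The 4 bleomycin values of the Car4-positive class lay close to each other and all above sham. In the Ccl8, Pf4 and Cxcl13 cluster Trem2 was 368 CPM in sham and 753, 807 and 952 CPM at days 7, 14 and 28. Lymphoid cells held 4.94 to 44.4 Trem2 CPM.

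Cd9, a surface tetraspanin, ran the other way. It was 4535 CPM in Car4-positive macrophages of sham, 3617 CPM at day 3, 3732 CPM at day 7, 3716 CPM at day 14 and 4476 CPM at day 28. In Car4-negative macrophages it was 3301 CPM in sham, 1073 CPM at day 3, 1375 CPM at day 7, 2343 CPM at day 14 and 3455 CPM at day 28. The Car4-positive class was higher in all 5 libraries, and its range did not overlap that of any other class.

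Cd63, the tetraspanin of late endosomes and lysosomes, was 1900 CPM in Car4-negative macrophages of sham, 443 CPM at day 3, 1497 CPM at day 7, 1445 CPM at day 14 and 1778 CPM at day 28. In Car4-positive macrophages it lay between 537 CPM at day 14 and 785 CPM at day 28. Outside the myeloid classes Cd63 was also high in fibroblasts, at 585 to 1159 CPM, a range that overlapped both macrophage classes.

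Lgals3, which encodes galectin-3, was 6044 CPM in Car4-negative macrophages of sham, 1478 CPM at day 3, 3535 CPM at day 7, 4314 CPM at day 14 and 4844 CPM at day 28. In Car4-positive macrophages it was 3568 CPM in sham, 3014 CPM at day 3, 2142 CPM at day 7, 1971 CPM at day 14 and 2006 CPM at day 28. The Gm15056 and Cxcl10 cluster held 7604 CPM at day 3, above both classes in that library. The Car4-positive level was lower than in sham in all 4 bleomycin libraries, with a ratio of 0.553 at day 14.

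**Figure D1:**
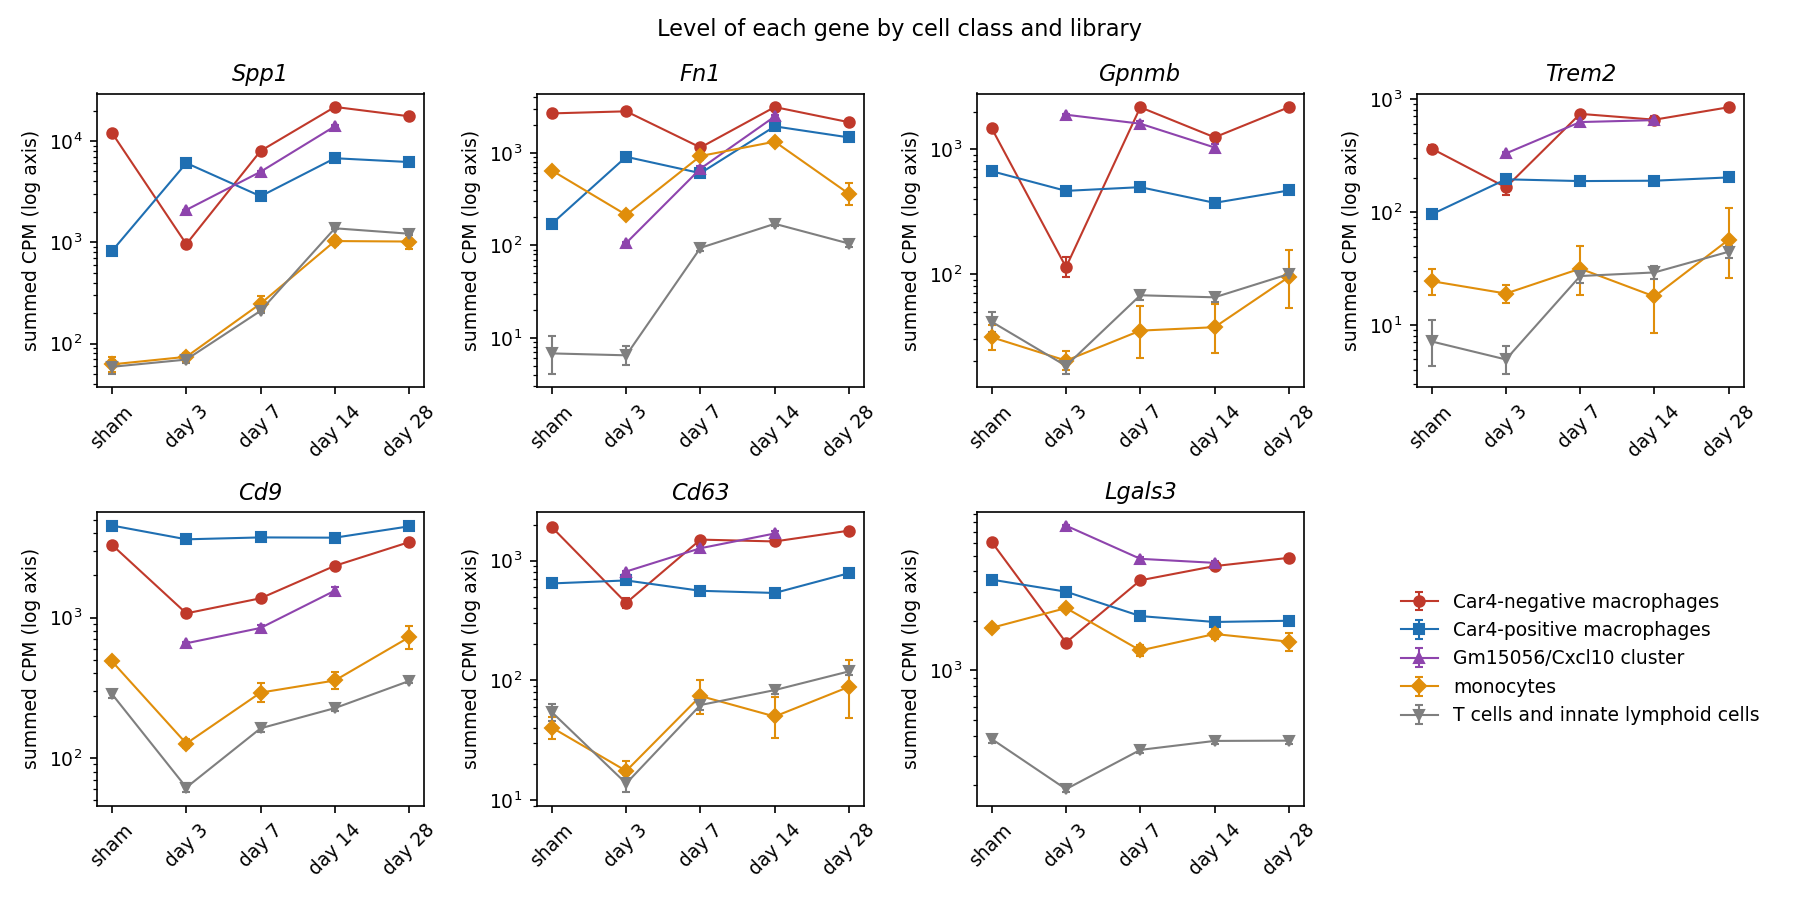
Summed level of each of the 7 genes in CPM (log axis) by library, for Car4-negative macrophages, Car4-positive macrophages, the unnamed Gm15056 and Cxcl10 cluster, monocytes, and T cells with innate lymphoid cells; bars are exact 95% Poisson intervals and cover counting error only. Car4-negative macrophages at day 3 lie at 959 CPM of Spp1 and 113 CPM of Gpnmb, and lymphoid cells reach 1374 CPM of Spp1 at day 14.

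Among all classes ordered by their mean log2 level over libraries, Car4-negative macrophages came first for Spp1, Fn1 and Cd63, the Gm15056 and Cxcl10 cluster came first for Gpnmb, Trem2 and Lgals3, and Car4-positive macrophages came first for Cd9. The leading class and the next in order overlapped in their ranges over libraries for 6 of the 7 members, Cd9 being the exception. The mean of the Gm15056 and Cxcl10 cluster is over the 3 libraries with at least 20 of its cells, and those of the macrophage classes are over 5. In the shared libraries this cluster was above Car4-negative macrophages in both Gpnmb and Trem2 at day 3 only, and below them at day 7 (1603 against 2171 Gpnmb CPM and 624 against 737 Trem2 CPM) and day 14 (1033 against 1246 and 649 against 655 CPM). Its Lgals3 level was the higher in all 3. Fibroblasts came next after Car4-negative macrophages for Fn1, at 675 to 1722 CPM.

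The members did not share 1 cluster pattern. The Mfge8, Mmp12 and Apoe cluster held 19952 CPM of Spp1, 2269 CPM of Gpnmb, 955 CPM of Trem2, 1925 CPM of Cd63 and 5561 CPM of Lgals3. The Spp1, Nrgn and Lpl cluster was close to it in Spp1 (18283 CPM) and Fn1 (2342 against 2567 CPM) but held 757 CPM of Gpnmb, 363 CPM of Trem2 and 2611 CPM of Lgals3. Its Cd9 level of 4020 CPM lay in the range of the Car4-positive clusters, which ran from 3512 to 4687 CPM. High Spp1 and Fn1 thus occurred both with and without the higher levels of Gpnmb, Trem2 and Lgals3, and these cluster values are a description with no test.

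**Figure D2:**
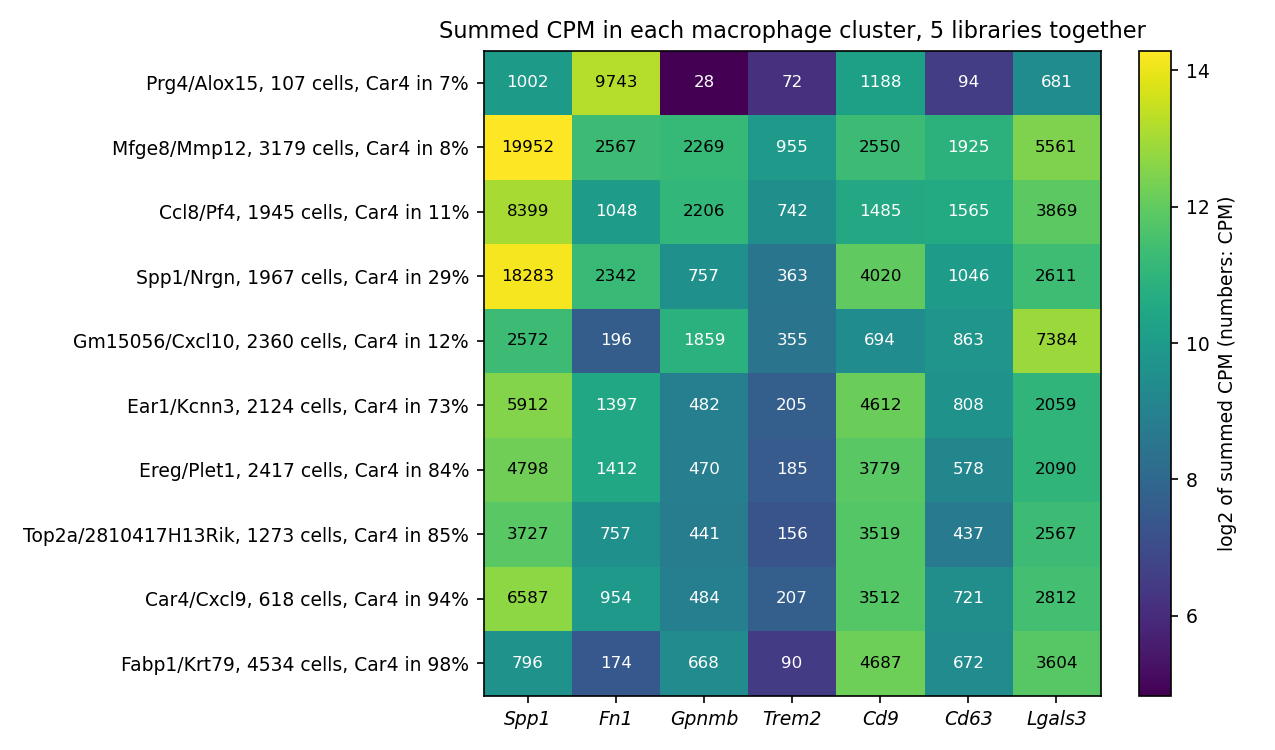
Level in CPM of each of the 7 genes (columns) in the 10 macrophage clusters, the unnamed cluster included (rows, named by leading genes), summed over libraries. Fn1 is at 9743 CPM in the Prg4, Alox15 and Saa3 cluster, where Gpnmb is at 28.4 CPM, and Cd9 is at 4020 CPM in the Spp1, Nrgn and Lpl cluster.

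The share of each gene's UMIs that came from each class moved with the cells. In sham, Car4-positive macrophages were 61.0% of cells and held 77.8% of Spp1, 65.8% of Fn1, 94.9% of Gpnmb, 90.6% of Trem2, 96.0% of Cd9, 90.2% of Cd63 and 92.8% of Lgals3 UMIs. At day 3 the Gm15056 and Cxcl10 cluster was 29.9% of cells. It held 48.2% of Spp1, 16.7% of Fn1, 90.8% of Gpnmb, 79.2% of Trem2, 29.8% of Cd9, 67.3% of Cd63 and 77.5% of Lgals3 UMIs. Car4-positive macrophages were 8.65% of cells there and held 47.7% of Spp1, 48.7% of Fn1 and 55.9% of Cd9 UMIs. At day 28 Car4-negative macrophages were 35.6% of cells and held 80.4% of Spp1, 67.6% of Fn1, 87.0% of Gpnmb, 85.1% of Trem2, 53.7% of Cd9, 75.2% of Cd63 and 76.7% of Lgals3 UMIs. The main source of Gpnmb and Trem2 UMIs was thus a different class in sham, at day 3 and at day 28.

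The first tested question was whether Car4-negative and Car4-positive macrophages of the same library differed in these genes. Trem2, Cd63 and Fn1 were higher in Car4-negative macrophages and Cd9 was higher in Car4-positive macrophages. With edgeR's quasi-likelihood test and Benjamini-Hochberg adjustment over 12345 genes, 3 of the 7 members were called higher and 1 lower at an adjusted p of 0.05, where 18.4% of all genes were called higher and 19.3% lower. Trem2 was higher by 1.74 ± 0.37 on the log2 scale (SE, adjusted p = 0.0114), Cd63 by 1.21 ± 0.35 (adjusted p = 0.0328) and Fn1 by 1.64 ± 0.49 (adjusted p = 0.0372). Cd9 differed by -0.76 ± 0.25 (adjusted p = 0.0493). For Spp1 the log2 difference was 1.58 ± 0.89 (adjusted p = 0.204), for Gpnmb 1.41 ± 0.65 (adjusted p = 0.133) and for Lgals3 0.78 ± 0.36 (adjusted p = 0.128), none of which passed. Over 20 alternatives the call was lost in 10 for Cd9, 8 for Cd63, 7 for Fn1 and 1 for Trem2. With 1 library left out, no member was called without day 7, 1 was without day 14 or day 28 and 2 were without sham. The median over the 7 members was 1.41, against -0.02 over all genes tested.

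For the 3 members not called, and for Trem2 and Cd63, day 3 stood apart from the other libraries. Trem2 and Cd63 were called, yet their log2 ratios of CPM + 10 at day 3 were -0.22 and -0.61. In the other 4 libraries they were 1.74 to 2.01 and 1.17 to 1.54. On the log2 ratio of CPM + 10, Spp1 differed by 3.85 in sham and by 1.49 to 1.68 at days 7, 14 and 28, but by -2.65 at day 3. Gpnmb lay between 1.13 and 2.19 in the other 4 libraries and at -1.94 at day 3, and Lgals3 lay between 0.72 and 1.27 and at -1.02. Without day 3 the fitted differences were 2.29 for Spp1 (adjusted p = 0.00839), 2.01 for Gpnmb (adjusted p = 0.00115) and 1.17 for Lgals3 (adjusted p = 0.002), and 5 members were called, Fn1 and Cd9 not among them (adjusted p = 0.072 and 0.0724, edgeR). The call of Fn1 did not hold without the Prg4, Alox15 and Saa3 cluster (log2 difference 0.91, adjusted p = 0.344), and Fn1's log2 ratio was 3.89 in sham and 0.54 at day 28.

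**Figure D3:**
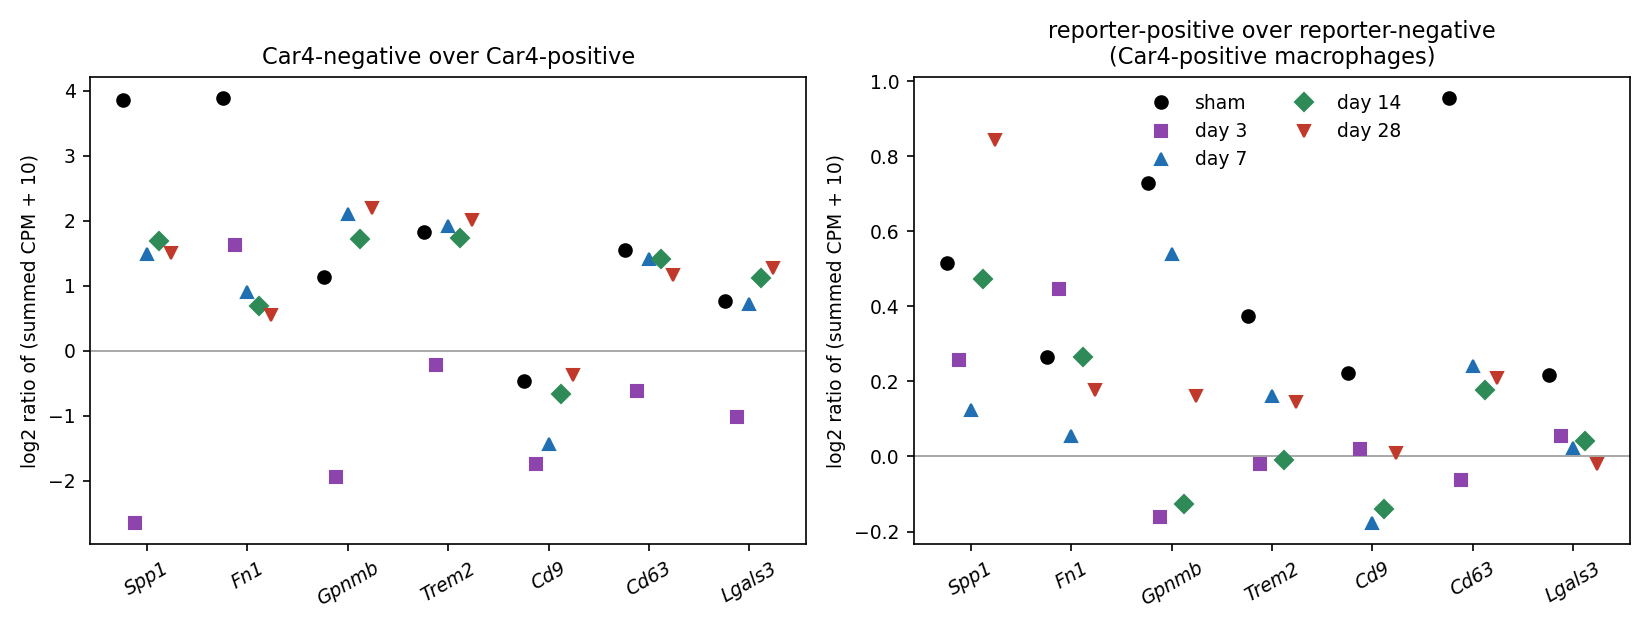
Log2 ratio of (CPM + 10) within each library for the 7 genes, at left Car4-negative over Car4-positive macrophages and at right reporter-positive over reporter-negative Car4-positive macrophages; each point is 1 library and the line at 0 marks no difference. At left day 3 lies at -2.65 for Spp1 and -1.94 for Gpnmb, and at right Spp1 lies above 0 in all 5 libraries, from 0.12 to 0.84.

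Compared with monocytes, macrophages of both classes combined had higher levels of 6 members. In the 5 libraries Gpnmb was 432 to 1524 CPM in macrophages and 20.2 to 94.7 CPM in monocytes, with no overlap, and Cd63 was 661 to 1400 CPM against 17.5 to 88.4 CPM. The log2 differences were 4.50 ± 0.19 for Gpnmb, 4.44 ± 0.33 for Spp1, 4.30 ± 0.22 for Cd63, 3.33 ± 0.35 for Trem2, 3.29 ± 0.26 for Cd9 and 0.93 ± 0.19 for Lgals3 (edgeR, largest adjusted p = 0.00382). By this test 25.8% of 10904 genes were called higher and 20% lower, with a median of 0.12 over all genes. Fn1 was the exception at 0.84 ± 0.57 (adjusted p = 0.264), with monocytes at 644 CPM in sham against 215 CPM in macrophages, and 360 CPM against 1884 CPM at day 28. Without sham the Fn1 difference was 1.41 and was called (adjusted p = 0.00537), and at a clustering resolution of 2 the Lgals3 call was not held (0.44, adjusted p = 0.318). Monocytes numbered 30 cells at day 28, 80 at day 14 and 82 at day 7.

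Against conventional dendritic cells, the antigen-presenting relatives of macrophages, macrophages were again higher in all members but Fn1. The log2 differences were 4.52 ± 0.16 for Gpnmb, 3.79 ± 0.30 for Spp1, 2.52 ± 0.23 for Cd9, 2.28 ± 0.21 for Trem2, 1.14 ± 0.19 for Lgals3 and 1.11 ± 0.16 for Cd63 (edgeR, largest adjusted p = 0.00258). By this test 27.0% of 12466 genes were called higher and 25.9% lower. Fn1 differed by 0.73 ± 0.42 (adjusted p = 0.184). The dendritic cell class held a cluster led by Mgl2, Cd209a and Ccl17 with 1272 Fn1 CPM and 1397 CPM of C1qa, a complement gene of macrophages, whereas its clusters led by Fscn1 and Ccl22 and by Xcr1 held 46.6 and 61.7 Fn1 CPM. Cd63 also differed between these clusters. The Fscn1 and Ccl22 cluster held 1089 Cd63 CPM in sham (46 cells) and 970 CPM at day 3. Macrophages held less there, at 667 and 661 CPM. At days 7, 14 and 28 this cluster lay below macrophages, and the Xcr1 cluster held 15.9 to 72.9 Cd63 CPM. In 6 alternative clusterings or cell filters the Fn1 difference was 1.93 to 4.30 and was called.

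Folds over sham were described by size alone, over genes with at least 50 CPM in 1 of the 2 libraries, at a limit of 2-fold. In Car4-positive macrophages Spp1 and Fn1 were past this size in all 4 bleomycin libraries. The Spp1 level was 7.38-fold that of sham at day 3, 3.47-fold at day 7, 8.24-fold at day 14 and 7.55-fold at day 28. The Fn1 level was 5.29-fold, 3.52-fold, 11.28-fold and 8.56-fold that of sham in the same order. Trem2 was past the size at day 3 (2.04-fold) and day 28 (2.12-fold), and no member was 2-fold lower at any time. These were 3 of 7 members at day 3, where 5.18% of genes were 2-fold higher and 2.62% lower, and 2 of 7 at day 7, where the shares were 2.2% and 1.81%. At day 14 they were 2 of 7, with 3.47% of genes higher and 2.44% lower, and at day 28 they were 3 of 7, with 3.1% higher and 3.36% lower. All 4 comparisons share the sham library.

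In Car4-negative macrophages, where sham is 98 cells, the members gave another picture. At day 3 none was 2-fold higher and 6 were 2-fold lower, all but Fn1, with 11.9% of all genes higher and 10.9% lower. Spp1 was at 0.0799-fold and Gpnmb at 0.0771-fold of sham. The number of lower members at day 3 was 3 to 6 under the alternatives run but one. It was 3 at a resolution of 2 (Spp1, Gpnmb and Cd63) and 3 with cells gated by their own Car4 UMIs (Spp1, Gpnmb and Lgals3), where Fn1 was 2-fold higher. With the Gm15056 and Cxcl10 cluster counted it was 4 (Spp1, Fn1, Cd9 and Cd63), so that Fn1 was lower and Gpnmb, Trem2 and Lgals3 were not. Without the Prg4 cluster it was 6, with Fn1 lower and Trem2 not. With the UMI floor of day 7, under which the classes were redrawn, it was 0, and Spp1 was higher. At day 7 Trem2 was 2.03-fold higher, and Fn1 (0.428-fold) and Cd9 (0.417-fold) were lower, with 2.9% of genes higher and 4.53% lower. At day 14 none was past the size in either direction, with 4.13% and 5.25% of genes. At day 28 Trem2 alone was past it, at 2.32-fold, with 5.05% and 7.85% of genes. Spp1 was 1.81-fold sham at day 14 and 1.46-fold at day 28, values that rest on the sham cells counted: with the mean of per-cell CPM in place of the sum they were 2.82-fold and 2.48-fold, and with cells gated by their own Car4 UMIs they were 6.53-fold and 5.07-fold. With the UMI floor of day 7 and its redrawn classes they were 89.27-fold and 76.35-fold.

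In 4 of 5 libraries, day 3 being the other, the share of cells with several members was higher in Car4-negative than in Car4-positive macrophages, and the difference was not tested. After thinning to 2000 UMIs per cell, Spp1, Fn1, Gpnmb and Trem2 were found together in 20.7% of Car4-negative cells in sham (17 of 82 cells, exact 95% binomial interval 12.6% to 31.1%), in 22.3% of day 7 cells (20.4% to 24.3%), 32.8% of day 14 cells (30.7% to 35.0%) and 41.9% of day 28 cells (40.1% to 43.6%). At day 3 it was 0 of 57 cells, which allows a share of up to 6.27%. In Car4-positive macrophages the share was 1.00% in sham (0.744% to 1.32%) and 4.72%, 4.42%, 10.2% and 10.4% at days 3, 7, 14 and 28. In lymphoid cells it was at most 0.559%. The share was higher in every bleomycin library than in sham among Car4-positive cells, and it exceeded the lymphoid share in each. At days 14 and 28 most lymphoid cells also held an Spp1 UMI, so the shares there rest mainly on Fn1, Gpnmb and Trem2. How much of the rise over sham came from this was not tested. The lymphoid share is limited by low Trem2, at 4.94 to 44.4 CPM, so exceeding it says little.

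Before thinning, at medians of 14217 to 24784 UMIs per Car4-negative cell at days 7 to 28, the same shares were 64.0%, 80.1% and 85.7%, and those of Car4-positive cells were 53.1%, 82.5% and 79.0%. The classes differ little on those values, while lymphoid cells, at medians of 3760 to 7837 UMIs, reached 2.29%. All 7 members together were found after thinning in 38.3% of Car4-negative and 7.01% of Car4-positive cells at day 28. The number of cells left out as shallower than 2000 UMIs was 90 of 3289 Car4-negative and 4 of 2173 Car4-positive cells at day 28, 16 of 98 and 127 of 5119 in sham, and 0 of both at day 7.

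**Figure D4:**
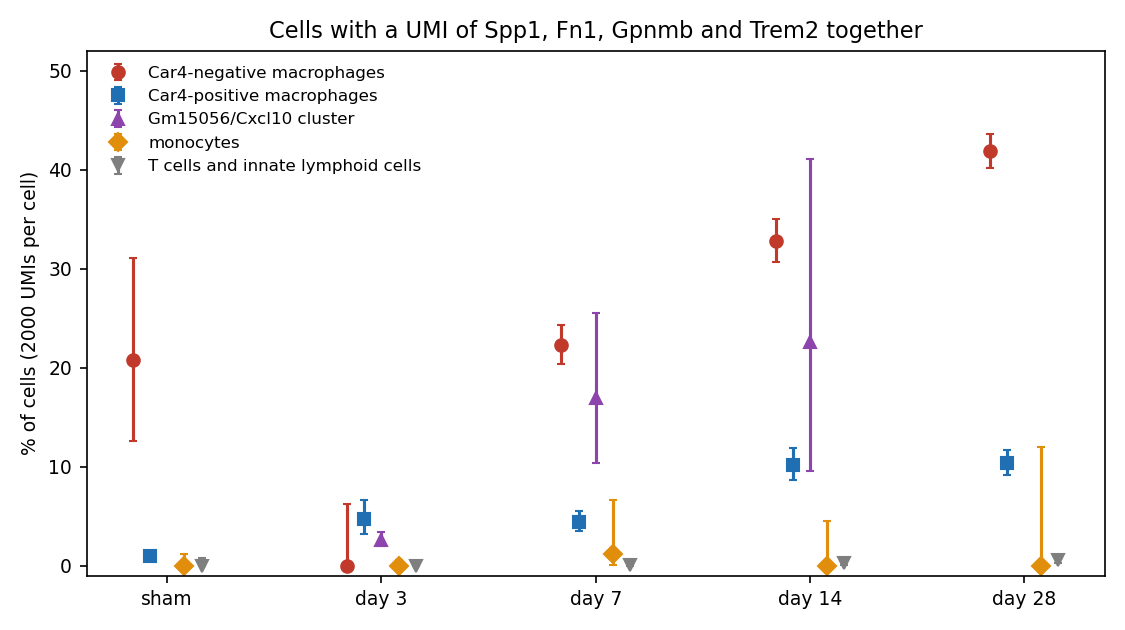
Percent of cells with at least 1 UMI of each of Spp1, Fn1, Gpnmb and Trem2 after thinning to 2000 UMIs, by library, for Car4-negative macrophages, Car4-positive macrophages, the unnamed Gm15056 and Cxcl10 cluster, monocytes, and lymphoid cells for comparison. Bars are exact 95% binomial intervals. Car4-negative cells reach 41.9% and Car4-positive cells 10.4% at day 28, and lymphoid cells stay at or under 0.559%.

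Car4-positive macrophages were also split by the reporter of the Ms4a3-CreER line. The reporter was taken to be the feature RFP of the count matrices, and cells with 3 or more RFP UMIs were set against cells with 0. Cells with 3 or more were 27.7% of the class in sham and 22.4%, 13.4%, 67.3% and 30.4% at days 3, 7, 14 and 28, against 5.20%, 5.13%, 12.1%, 16.1% and 3.26% of lymphoid cells, which are shallower. Spp1 was higher in reporter-positive cells, by 0.47 ± 0.08 on the log2 scale (edgeR, adjusted p = 0.0264), with the log2 ratio above 0 in 5 of 5 libraries. It was the 1 member called of 7, where 0.372% of 11024 genes were called higher and 0.0998% lower. Fn1 stood at 0.26 ± 0.05 (adjusted p = 0.0529), Cd63 at 0.34 ± 0.11 (adjusted p = 0.292), Gpnmb at 0.28 ± 0.11 (adjusted p = 0.429), Trem2 at 0.18 ± 0.07 (adjusted p = 0.351), Lgals3 at 0.09 ± 0.04 (adjusted p = 0.575) and Cd9 at 0.01 ± 0.06 (adjusted p = 1.00).

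The reporter level bears on this comparison. In monocytes RFP was 1278 CPM in sham and 1489, 331, 328 and 63.1 CPM at days 3, 7, 14 and 28, the last over 30 cells. Reporter-positive Car4-positive cells held 212, 222, 266, 639 and 668 CPM in the same order. Whether these cells descend from monocytes was not tested. RFP was 110 CPM in Car4-positive macrophages of sham and 114 CPM in lymphoid cells, and 80.4 against 128 CPM at day 7, so that the reporter level did not exceed that of lymphoid cells there. At day 3 it was 100.4 against 60.2 CPM. At day 14 it was 495 against 260 CPM and at day 28 it was 276 against 127 CPM. A fit with only these 2 libraries was added after the data were seen and leaves 1 residual degree of freedom. In it Spp1 differed by 0.67 (edgeR, adjusted p = 1.47e-09) and Fn1 by 0.23 (adjusted p = 0.0133). The log2 ratios of Spp1 in the 2 libraries were 0.47 at day 14 and 0.84 at day 28, so these p-values do not rest on replicate animals. Reporter-positive cells were also deeper, with medians of 17489 to 25872 UMIs against 11893 to 16876. With every cell thinned to 2000 UMIs Spp1 (0.53), Fn1 (0.28) and Cd63 (0.42) were called. The thinned cells were still split by their unthinned reporter counts, so this fit cannot show what part depth had in the split. The Spp1 call was not held without sham (adjusted p = 0.057) or without day 28 (adjusted p = 0.0659).

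Genes that work with the members were counted from lists of their pathways. The counts stand beside the shares over all genes given above, which were 18.4% higher and 19.3% lower between the Car4 classes, 25.8% and 20% against monocytes, 27.0% and 25.9% against dendritic cells, and 0.372% and 0.0998% with the reporter. Of 20 lipid-associated macrophage genes, all tested, 9 were higher in Car4-negative than in Car4-positive macrophages and none was lower, with a list median of 0.64. Apoe, the lipid carrier, differed by 5.78 ± 0.28 on the log2 scale, from 2408 CPM in sham to 20434 CPM at day 14 in Car4-negative cells and from 24.2 to 575 CPM in Car4-positive cells. Mmp12, a macrophage elastase, differed by 3.59 ± 0.93 and Mfge8, which bridges macrophages to dying cells, by 3.02 ± 0.79, with Mfge8 in Car4-negative cells at 3587 CPM at day 28 and at 234 CPM or less in the other libraries. Lpl, the lipoprotein lipase of the same list, was not among the 9. Against monocytes 14 of the 20 were higher, against dendritic cells 16 were, and with the reporter 2 were (Mfge8 and Syngr1), with none lower in any of these.

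Of the 12 receptors of osteopontin and fibronectin, 9 were tested between the macrophage classes. Itga4, Itga5, Itga9, Itgb1 and Sdc4 were higher in Car4-negative macrophages, with Itga9, an integrin chain for both ligands, at 4.62 ± 0.59, and Cd44, a receptor of osteopontin and hyaluronan, was lower at -1.37 ± 0.23. Against monocytes 3 of 8 tested were higher and 4 lower, and against dendritic cells 3 of 10 were higher and 3 lower. Among the 10 genes of the Trem2 ligand and signalling list, the adaptors Tyrobp (0.72 ± 0.14) and Hcst (0.80 ± 0.09) were higher in Car4-negative macrophages and the kinase Syk (-0.55 ± 0.15) was lower. Against monocytes, where Trem2 itself was higher, 2 of the 10 were higher and 5 lower, Tyrobp and Hcst being among the lower. Against dendritic cells 5 were higher and 3 lower. The 2 of 10 higher between the Car4 classes and against monocytes, and the 3 of 10 receptors in each direction against dendritic cells, lie near the shares over all genes, and nothing is read from them.

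Of 5 Trem family genes Treml1 was higher in Car4-negative macrophages, and Trem1, an amplifier of inflammation, Trem3 and Treml4 were lower, with a list median of -1.14. Treml4 was also used as a monocyte marker when clusters were named. Against monocytes 0 of 4 tested were higher and 3 lower, and against dendritic cells 2 of 5 were higher and none lower. Of 11 further tetraspanins, 5 were higher in Car4-negative macrophages, Tspan3 by 3.02 ± 0.25 and Cd37 by 2.07 ± 0.30 among them, and Cd82 was lower. Against monocytes 4 were higher and 3 lower, and against dendritic cells 5 were higher and 2 lower, and the monocyte counts are near the 25.8% and 20% of all genes.

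Of 8 galectin genes 5 were tested between the macrophage classes, with Lgals1, Lgals9 and Lgals3bp higher and Lgals4 and Lgals8 lower. Against monocytes 4 of 5 were higher and against dendritic cells 3 of 5, with none lower. Of the 4 MiT transcription factors, which drive lysosomal genes, Tfe3 was higher by 0.31 ± 0.07 in Car4-negative macrophages and Tfec was lower at -1.01 ± 0.23, counts of 1 in 4 that are near the shares over all genes. Mitf and Tfec were higher than in monocytes, and Mitf, Tfeb and Tfec were higher than in dendritic cells. With the reporter no gene of the receptor, Trem2 partner, Trem, tetraspanin, galectin or MiT lists was called.

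Over time in the Car4-positive class, where Spp1 and Fn1 were past 2-fold, the listed genes were counted in the same way. Of the lipid-associated genes measured, 1 of 16 was 2-fold higher at day 3, 2 of 17 at day 7, 3 of 18 at day 14 and 5 of 19 at day 28, against 5.18%, 2.2%, 3.47% and 3.1% of all genes. Apoe was past this size at all 4 times, Mmp12 from day 7 on, Apoc1 at days 14 and 28, and Psap and Mfge8 at day 28. Apoe was at 24.2 CPM in sham and 79.1, 347, 575 and 376 CPM at days 3, 7, 14 and 28. Lgals9, a galectin induced by interferon, was past 2-fold at all 4 times, from 18.4 CPM in sham to 169 CPM at day 3, and Lgals3bp was at days 3 and 7. Among the receptors Itgb5 was at day 14, and among the Trem2 partners Adam10, a protease that sheds Trem2, was at days 14 and 28. Cd36, a scavenger receptor, was 2-fold lower at days 3, 14 and 28, and Trem1 was at day 28. None of the tetraspanins or MiT factors was past 2-fold at any time in this class.

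Across the 10 sums of 2 classes and 5 libraries, 5 members varied together and Fn1 and Cd9 stood apart from most of them. Pearson's r of log2(CPM + 10) was 0.91 for Gpnmb with Cd63, 0.88 for Cd63 with Lgals3, 0.87 for Gpnmb with Lgals3, 0.85 for Cd63 with Trem2 and 0.82 for Spp1 with Trem2. The lowest r within these 5 was 0.58, for Spp1 with Lgals3. Fn1 had r of 0.04 with Gpnmb, 0.05 with Lgals3, 0.37 with Cd63, 0.56 with Trem2 and 0.60 with Spp1, and Cd9 had r between -0.43 and 0.19 with the other members. The genes outside the list with the most similar pattern among 4266 were Ctsa (0.90), Zranb3 and Rnf128 for Spp1, Rab11fip5 (0.95), Acer3 and Adam15 for Fn1, Fabp5 (0.97), Pkib and Lamp1 for Gpnmb, and Sema4d (0.97), Syngr1 and Slc6a8 for Trem2. For Cd9 they were Gsap (0.97), Cd44 and 4833439L19Rik, for Cd63 they were Gla (0.96), Gusb and Slc27a1, and for Lgals3 they were Acot13 (0.95), Ubxn6 and Dpp7. The 10 sums share libraries and 2 of them hold under 100 cells, so these values are descriptions of likeness and carry no test.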

How the data were processed

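Single-cell RNA-seq of lung cells was made by the authors with the 10x 3′ kit, and the deposited matrices hold raw UMI counts per gene and barcode for 1 library per time point, with no normalization. Per the submitters' processing notes the reads were counted with Cell Ranger 6.0.0 on mm10. The headers of the matrices name another software version, and their features include RFP, which is not a mouse gene. The limits of the study's methods were applied to the barcodes, namely a gene number of 300 to 8000, a UMI total of 800 to 60000 and a mitochondrial share below 15%, which 44772 of 52800 met. Doublets (3822) were removed by their Scrublet score, at 0.8% per 1000 barcodes, which leaves 40950 cells.

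Cells were clustered with Leiden at resolution 1 on 30 components of 3000 variable genes (scanpy 1.11.5, leidenalg 0.10.2), with the 7 members, the listed genes that are not markers and the reporter left out. Clusters were named by marker scores, with a lowest score of 0.1 and a margin of 0.2 set after the clusters had been seen. A macrophage cluster was Car4-positive when at least 50% of its cells held a Car4 UMI. Different cell names may result from other reconstructions.

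UMI counts were summed per class and library and given as CPM. Class differences were tested with edgeR 4.0.16 (quasi-likelihood, TMM, filterByExpr, library as a covariate) and called at a Benjamini-Hochberg adjusted p of 0.05. DESeq2 1.42.0 was an alternative. The classes were built from other genes of the same cells, so p-values between classes are not independent of the clustering. On simulated counts for the Car4 comparison over 12190 genes the test recovered 8.25% of 2-fold and 78.1% of 4-fold changes. The simulation gave all genes the same capped spread and let libraries differ in depth only. The rates for genes with the spread seen in these data were therefore not tested. Time points were compared by folds alone, with exact intervals from scipy 1.17.1. Shares of cells were taken after thinning to 2000 UMIs.

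The members and lists were chosen with earlier results of these data known. The named genes were the 7 members, up to 4 examples from each list, and for each member the 3 genes closest in Pearson's r. Alternatives to the filters, doublet removal, resolution, variable genes, Car4 gate, reporter limit, depth and test were run, each library was left out in turn, and some alternatives were added after the data were seen.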

Additional observations from a re-analysis of the deposited data

Results flagged for a closer look

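Within each library the log2 ratio of (CPM + 10) between classes was compared over the 5 libraries for 28 sets of 1 gene and 1 comparison. In 4 of them day 3 lay far from the other 4 libraries, always for Car4-negative over Car4-positive macrophages. For Gpnmb the day 3 value was -1.94, against 1.13 to 2.19 in the others. For Lgals3 it was -1.02, against 0.72 to 1.27. For Cd63 it was -0.61, against 1.17 to 1.54. For Trem2 it was -0.22, against 1.74 to 2.01. Chance marks about 1 in 20 such sets, and the 4 share the same 72 Car4-negative cells of day 3, of which 27.8% belonged to the Prg4, Alox15 and Saa3 cluster with 28.4 Gpnmb CPM and 94.1 Cd63 CPM. Without that cluster the Car4-negative level at day 3 was 207 CPM for Gpnmb, 2058 CPM for Lgals3, 805 CPM for Cd63 and 245 CPM for Trem2, against 464, 3014, 683 and 194 CPM in Car4-positive macrophages, so that Gpnmb and Lgals3 stayed lower and Cd63 and Trem2 did not.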

How the results depend on the processing

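Over 518 log2 differences of members recomputed under alternatives, 513 kept their sign; the 5 that did not were Cd9 values near 0 in the reporter comparison. Between Car4-negative and Car4-positive macrophages 4 members were called, against 2 with no library term (the fit without the replicate block), 2 without the Prg4 cluster, and 0 to 5 with 1 library left out: 0 without day 7, 1 without day 14 or day 28, 2 without sham and 5 without day 3. A fit with days 7, 14 and 28 only was added after the data were seen. It called 6 members higher and 0 lower, where 23.6% of genes were called higher and 23.0% lower. Over all genes the calls higher were 2267, against 1396 with no library term and 1377 to 1569 without day 7, day 14 or day 28, and the calls lower were 2383, against 1314 and 1187 to 1496. With the Gm15056 and Cxcl10 cluster counted as Car4-negative, Gpnmb (1.98, adjusted p = 0.000696) and Lgals3 (1.18, adjusted p = 0.00178) were called while Fn1 (0.91, adjusted p = 0.417) and Cd9 (-0.92, adjusted p = 0.0766) were not, by edgeR. Numbers of calls against monocytes and dendritic cells, and of 2-fold members in Car4-positive macrophages, stayed within 1.5 times under every alternative run. For the reporter 1 member was called, against 5 with no filter on low counts, 3 with thinning to 2000 UMIs, 2 with DESeq2, at resolution 0.5 and 2 or with days 14 and 28 only, 0 with no library term, doublets kept or 2000 variable genes, and 0 to 1 with 1 library left out. Over all genes the reporter calls higher were 41, against 281 with no filter, 1 with no library term, 16 or 57 with cells gated by their own Car4 UMIs, 82 with days 14 and 28 only and 10 to 67 with 1 library left out, and the calls lower were 11, against 100, 0, 9 or 11, 43 and 2 to 14, and 17 with thinning. In Car4-negative macrophages 2 pairs of member and time were at least 2-fold above sham, against 5 with a mitochondrial limit of 10%, resolution 0.5, 2000 variable genes or mean CPM per cell, 6 with doublets kept, 7 at resolution 2, 8 with cells gated by 1 or more or 2 or more Car4 UMIs, and 15 with the UMI floor of day 7 in every library, where sham held 228 Spp1 CPM. At day 3 the 6 members at least 2-fold below sham in this class were 5 with doublets kept, a mitochondrial limit of 10% or 2000 variable genes, 4 with mean CPM per cell or the Gm15056 and Cxcl10 cluster counted, 3 at resolution 2 or with the Car4 UMI gates, and 0 with the day 7 floor. Changes of the cell filters, doublet removal, resolution or variable genes, the day 7 floor included, also cluster and name the cells anew. The cause of a shift in these counts was not tested. The depth limits are those of the 98 and 72 Car4-negative cells of sham and day 3 and the 30 monocytes of day 28. No paired analysis was possible between time points because each has 1 library.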
